A study of Mus musculus with 9 samples.

Results

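The Rhox genes (reproductive homeobox genes on the X chromosome) were examined in mouse embryonic stem cells (ESCs) of the E14 line and in a pair of Rbbp4 mutant lines derived from it. Members were selected by symbol, as every row of the deposited gene counts named Rhox, a number, and an optional copy letter, which gave 31 of 25239 gene symbols. The family was chosen from the readout of these libraries, because Rhox2a was known to be among the genes with the highest ratios of both mutants to control. Values and calls of the members against control are therefore a description, and the calls cannot serve as a test of the family. The annotated genes Rhox3a2, Rhox4a2, and Rhox7b match the same rule but had no row of their own and are not analysed here. RNA-seq was performed on 9 libraries, 3 of control E14 ESCs (genotype Rbbp4+/+), 3 of Rbbp4 Ins/Ins ESCs, and 3 of Rbbp4 Ins/Del ESCs. Rbbp4 encodes a histone-binding WD40 protein shared by several chromatin complexes, including PRC2 and histone deacetylase complexes. CRISPR-Cas9 editing left an in-frame insertion on both alleles of Rbbp4 Ins/Ins ESCs, and the same insertion on one allele with an in-frame deletion on the other in Rbbp4 Ins/Del ESCs. The lines are called Ins/Ins and Ins/Del from here on. Each mutant line is 1 clone, so genotype and clone cannot be told apart, and nothing in the labels says that replicates of a line came from separate cultures, so p-values measure the spread between these libraries. All lines carried the strain label 12910la and were grown in medium with fetal bovine serum and leukemia inhibitory factor, with no feeder cells named.

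Rhox genes encode homeodomain proteins, which bind DNA and are presumed to control other genes, and they are known for expression in testis, ovary, epididymis, placenta, and germ cells. In the mouse the cluster is divided into the alpha, beta, and gamma subclusters, and the alpha genes Rhox2, Rhox3, and Rhox4 exist as tandem copies that carry the same number and different letters. In cells of the embryo proper most of the cluster is known to be silent, with DNA methylation, the H3K9 methyltransferase G9a (Ehmt2), and linker histones among the factors described as repressing it. Rhox5 (also called Pem) is the founding member and is the one long known to be expressed in ESCs and extraembryonic tissue.

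The 31 members are all annotated as protein-coding genes within chrX:37213804-38129967 of GRCm38 (mm10), a stretch of 916 kb, with 22 members in the alpha subcluster, 5 in the beta subcluster, and 4 in the gamma subcluster. The alpha members comprise Rhox1, 8 copies of Rhox2, 6 of Rhox3, and 7 of Rhox4. RefSeq promoter sequences (GRCm38.p6, 250 bases before the start site to 50 bases after it) were held for 25 of the 31 members. The promoters of Rhox2f, Rhox4d, Rhox6, Rhox7a, Rhox8, and Rhox9 are not shown. DNA methylation in mammals falls on the dinucleotide CG, so CG is set in capitals in the sequences. The promoters printed are those of Rhox1, Rhox2a, Rhox10, and Rhox13, which had more reads in the mutants. Those of Rhox2e and Rhox11, which had few reads in every library, are also printed. All stretches of 50 bases (the read length) in Rhox2e transcripts also occur in another member. Its low count therefore does not show low expression, and it cannot be set against that of Rhox2a. They lie at chrX:37222209-37222508 (Rhox1, minus strand), chrX:37244742-37245041 (Rhox2a, plus strand), chrX:37530218-37530517 (Rhox2e, plus strand), chrX:38066225-38066524 (Rhox10, plus strand), chrX:38085090-38085389 (Rhox11, minus strand), and chrX:38120590-38120889 (Rhox13, plus strand), and each is written from 5′ to 3′ of its gene.
Rhox1: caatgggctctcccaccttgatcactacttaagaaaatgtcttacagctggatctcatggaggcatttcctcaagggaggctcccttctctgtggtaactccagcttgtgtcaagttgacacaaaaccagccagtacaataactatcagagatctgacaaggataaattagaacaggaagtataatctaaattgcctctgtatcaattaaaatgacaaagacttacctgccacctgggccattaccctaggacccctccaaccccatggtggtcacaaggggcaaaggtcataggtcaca
Rhox2a: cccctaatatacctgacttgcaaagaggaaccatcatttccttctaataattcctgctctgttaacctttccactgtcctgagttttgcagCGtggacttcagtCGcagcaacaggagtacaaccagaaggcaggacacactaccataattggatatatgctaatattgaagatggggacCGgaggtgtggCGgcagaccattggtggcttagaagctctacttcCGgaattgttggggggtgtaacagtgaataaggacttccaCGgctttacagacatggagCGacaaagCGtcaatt
Rhox2e: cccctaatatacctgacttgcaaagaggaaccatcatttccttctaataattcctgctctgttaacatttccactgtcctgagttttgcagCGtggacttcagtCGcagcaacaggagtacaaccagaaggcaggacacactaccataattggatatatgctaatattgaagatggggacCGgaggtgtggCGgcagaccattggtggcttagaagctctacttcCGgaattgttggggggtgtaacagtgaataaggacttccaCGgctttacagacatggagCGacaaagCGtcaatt
Rhox10: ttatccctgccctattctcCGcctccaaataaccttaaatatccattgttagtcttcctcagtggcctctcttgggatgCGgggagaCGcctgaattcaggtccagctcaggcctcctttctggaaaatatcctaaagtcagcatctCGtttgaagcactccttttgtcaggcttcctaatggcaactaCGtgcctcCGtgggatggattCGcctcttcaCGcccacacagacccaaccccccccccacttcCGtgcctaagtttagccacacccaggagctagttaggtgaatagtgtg
Rhox11: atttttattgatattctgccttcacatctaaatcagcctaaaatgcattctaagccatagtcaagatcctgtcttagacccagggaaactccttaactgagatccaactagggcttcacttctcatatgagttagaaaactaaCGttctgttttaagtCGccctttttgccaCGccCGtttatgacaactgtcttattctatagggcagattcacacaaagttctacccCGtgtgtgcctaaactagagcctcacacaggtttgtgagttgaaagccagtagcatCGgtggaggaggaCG
Rhox13: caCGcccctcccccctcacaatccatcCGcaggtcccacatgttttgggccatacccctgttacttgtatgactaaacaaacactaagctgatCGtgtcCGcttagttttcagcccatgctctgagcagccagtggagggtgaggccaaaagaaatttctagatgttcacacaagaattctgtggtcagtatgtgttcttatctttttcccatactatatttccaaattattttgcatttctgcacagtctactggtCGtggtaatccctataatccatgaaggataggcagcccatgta

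The Rhox1 promoter held 0 CG, that of Rhox13 held 5, Rhox11 7, Rhox2a and Rhox2e 8 each, and Rhox10 9. The median was 7 over the 25 members, with a range from 0 to 12, and also 7 over the 32841 RefSeq promoters of this length. Rhox1 with 0 CG and Rhox10 with 9 were among the members with more reads in the mutants, and Rhox11 with 7 had at most 2 reads in any library. DNA methylation was not measured, and a relation of CG count to the read counts was not tested. The Rhox2a and Rhox2e windows were identical at 99.7% of aligned positions, as were those of Rhox2a and Rhox2c, and the Rhox3a and Rhox3h windows were identical throughout. Promoters of members with different numbers were identical at a median of 48.9% of positions in a global alignment, and at most 56.1%. The palindromic E-box letters CACGTG were found in 4 of the 25 windows (Rhox4b, Rhox4e, Rhox4f, and Rhox4g) and in 7.15% of all promoters. GCGGGA or its complement TCCCGC, the core letters of the E2F6 motif, was in 0 of 25 windows and in 19.98% of all promoters. The 25 windows include those of 7 Rhox2, 6 Rhox3, and 6 Rhox4 copies, and the 4 with CACGTG are all of Rhox4. The windows are therefore not all independent, and their counts and median beside all promoters are a description. For Rhox5 the RefSeq start used for the window lay 50234 bases from the start in the GENCODE annotation, and for Rhox13 379 bases, so these windows may not be the promoters used in these cells.

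Library totals lay between 15838064 and 21366868 reads counted to genes, and 14125 genes passed the filter on low counts. Values per library are normalized read counts, which are counts scaled to the mean of the effective library sizes (totals times TMM factors). Rbbp4, the targeted gene, measured 9932, 9965, and 10117 in the control libraries, 5485, 5551, and 5776 in Ins/Ins ESCs, and 10129, 10344, and 10603 in Ins/Del ESCs. Against control its log2 fold change was -0.84 in Ins/Ins ESCs (adjusted p = 1.78e-25) and 0.05 in Ins/Del ESCs (adjusted p = 0.107), and as the alleles are small in-frame changes its level does not check the Ins/Del label. All 10 ESC markers examined, among them Pou5f1, Sox2, and Nanog, were detected in every group, with summed normalized read counts of 101153 to 105814 in control, 127675 to 129592 in Ins/Ins, and 126288 to 129674 in Ins/Del libraries. In Ins/Ins ESCs 7 were called higher and 2 lower (Pou5f1 and Utf1), beside 29.0% and 29.4% of all tested genes. In Ins/Del ESCs 6 were called higher and 1 lower (Utf1), beside 30.6% and 31.9%. Calls are at an adjusted p of at most 0.01.

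More members of the cluster had at least 1 read in the mutants than in control, and the summed reads of the family were higher in both. In control ESCs 10 of the 31 members had at least 1 read in some library and 5 had reads in every library. In Ins/Ins ESCs 19 members had a read and 10 were read in every library, and in Ins/Del ESCs 23 had a read and 10 were read in every library. The 5 members without a read in any library were Rhox3a, Rhox3e, Rhox3g, Rhox4d, and Rhox4f. A total of 0 reads over 3 libraries allows up to 3 reads, and this floor covers counting error only. Totals over this floor were held by 6 members in control, 12 in Ins/Ins, and 14 in Ins/Del ESCs. The share of all genes that gained a read in the mutants was not computed. Reads can also be split among near-identical copies, so these counts of members are a description.

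The family sum was 486, 502, and 484 normalized reads in the control libraries. It was 3220, 3289, and 3240 in the Ins/Ins libraries, and 4427, 4757, and 4685 in the Ins/Del libraries. The 3 groups did not overlap, in the order control, Ins/Ins, Ins/Del. The means were 490 ± 9.84, 3250 ± 35.9, and 4623 ± 173 (SD, n = 3 each), which is 6.63-fold and 9.43-fold the control mean. Relative to control, the alpha sum was 20.5-fold and 25.9-fold (14.4 ± 4.56, 295 ± 16.7, and 372 ± 36.4 normalized reads), the beta sum 5.44-fold and 7.96-fold (435 ± 11.8, 2368 ± 41.4, and 3461 ± 132), and the gamma sum 14.3-fold and 19.3-fold (41.1 ± 5.71, 587 ± 17.5, and 791 ± 38.0). The alpha and gamma sums were the smaller in control and had the larger ratios, but each sum was mostly 1 gene. In control Rhox1 gave 13.1 of the 14.4 alpha reads, Rhox5 358 of the 435 beta reads, and Rhox13 39.5 of the 41.1 gamma reads. In Ins/Ins ESCs these genes gave 251 of 295, 1960 of 2368, and 561 of 587. The ratios of the sums therefore mainly describe these genes and not each subcluster as a whole. In bulk RNA, more expressing cells and more RNA per cell cannot be told apart.

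**Figure D1:**
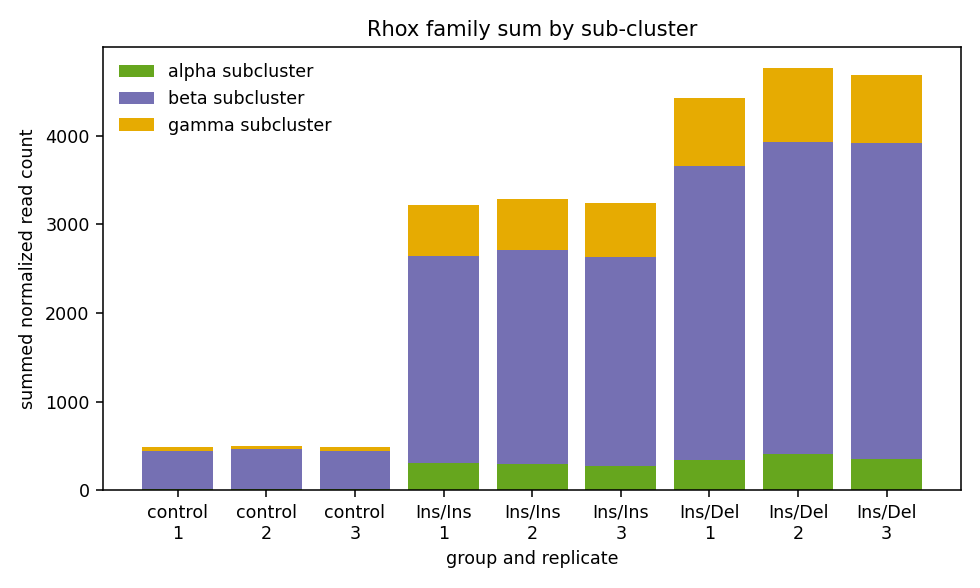
Stacked bars give the normalized reads of the alpha, beta, and gamma subclusters summed over their members, 1 bar for each of the 9 libraries. The control bars stand at 484 to 502, the Ins/Ins bars at 3220 to 3289, and the Ins/Del bars at 4427 to 4757, with the beta subcluster the largest part of each.

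Of the 31 members 7 passed the filter on low counts and entered the fit, namely Rhox1 and Rhox2a (alpha), Rhox5, Rhox6, and Rhox9 (beta), and Rhox10 and Rhox13 (gamma). The other 24 did not. Rhox2a and Rhox10 had at most 3 reads in any control library and so passed only through the mutant libraries. In the fit of all genes, 7 members were called higher and 0 lower in each mutant against control, beside 29.0% of all tested genes called higher and 29.4% lower in Ins/Ins ESCs, and 30.6% higher and 31.9% lower in Ins/Del ESCs. Every mutant library lay above every control library for these 7, which held for 34.9% (Ins/Ins) and 35.9% (Ins/Del) of tested genes. Both comparisons use the same 3 control libraries. The median log2 ratio of the 7 was 3.82 in Ins/Ins and 4.24 in Ins/Del ESCs, and that of all tested genes was 0.00 and -0.01. Without Rhox2a and Rhox10, 5 of 5 members were called higher in each mutant, with medians of 2.78 in Ins/Ins and 3.13 in Ins/Del ESCs. Since the same comparisons chose the family, these counts and medians describe it and support nothing further.

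Rhox1 lies at the start of the cluster (chrX:37213804-37222258, minus strand) and has no lettered copy. Its normalized read count was 12.8, 18.9, and 7.58 in control, 261, 254, and 237 in Ins/Ins, and 270, 339, and 252 in Ins/Del libraries. Both mutants were far above control, and they overlapped each other. The means of 251 ± 12.4 and 287 ± 46.0 were 19.1-fold and 21.9-fold the control mean of 13.1 ± 5.64 (SD, n = 3 each).

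Rhox2a (chrX:37244976-37249686, plus strand) is the first of the Rhox2 copies. Control libraries held 1, 0, and 0 reads of it, Ins/Ins libraries 35, 24, and 26, and Ins/Del libraries 44, 48, and 50. It was thus close to absent in control and present in every mutant library, with the groups apart from each other in normalized values (27.1 to 29.9 in Ins/Ins and 43.3 to 57.9 in Ins/Del). Because control held 1 read in all, the ratios have wide counting intervals, 86.3 (95% exact conditional interval 15.1 to 3449) and 147 (25.9 to 5834).

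Rhox2b, Rhox2c, and Rhox2d showed the same order of the groups at lower counts. Rhox2b had 0 reads in control, 7, 7, and 4 in Ins/Ins, and 8, 6, and 14 in Ins/Del libraries, or at least 6.09-fold and 9.64-fold the floor of 3 reads over the control group. Rhox2c had 0 reads in control, 3, 2, and 3 in Ins/Ins, and 2, 15, and 8 in Ins/Del libraries, and Rhox2d had 0 in control, 3, 4, and 0, and 6, 8, and 7. The other Rhox2 copies (Rhox2e to Rhox2h) had between 2 and 8 reads each over all 9 libraries. Together the 8 copies of Rhox2 gave 0.65 ± 0.57 normalized reads in control, 40.9 ± 3.36 in Ins/Ins, and 80.0 ± 13.9 in Ins/Del ESCs (SD, n = 3 each). Without Rhox2a they gave 0.36 ± 0.63, 12.7 ± 3.14, and 31.3 ± 6.01, so the higher counts were not limited to the reads assigned to Rhox2a.

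The Rhox3 and Rhox4 copies, which alternate with the Rhox2 copies along the same stretch, had read counts near 0. Most of the transcript sequence of each also occurs in another member, and reads of such sequence may be left out. These low counts therefore do not show low expression, and a difference in expression from the Rhox2 copies was not tested. The 6 copies of Rhox3 had 0, 1, and 4 reads over the 3 libraries of control, Ins/Ins, and Ins/Del ESCs. The 7 copies of Rhox4 had 2, 11, and 9 reads, of which Rhox4e held 10 and Rhox4g 8 over all libraries. The Rhox4 ratios of 5.59 (95% exact conditional interval 1.22 to 51.9) and 4.65 (0.96 to 44.2) therefore rest on few reads, and the latter interval includes 1.

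Near-identical copies share most of their sequence, so reads can be split between them or left out. Among all stretches of 50 bases (the read length) in the GENCODE M21 transcripts of Rhox2a, 8.90% occurred in no other gene, and 91.1% also occurred in another member. This share was 0% for Rhox2e, 17.7% for Rhox2b, 27.5% for Rhox2c, and 55.3% for Rhox2d, from 3.01% to 39.5% for the Rhox3 copies, and from 6.28% to 33.2% for the Rhox4 copies. Rhox2a had 228 reads in all on 75 unique stretches, and Rhox2h had 8 reads on 395. The order of the Rhox2 copies by reads was therefore not the order of their unique sequence. Rhox1, Rhox5, Rhox10, Rhox11, Rhox12, and Rhox13 were unique throughout, Rhox9 at 93.7%, and Rhox6 at 83.5%, so their counts are not open to such splitting or only in small part. The Rhox2c and Rhox3c exons overlap on the same strand over 13.2% and 14.4% of their lengths. Paired reads span more than 1 stretch, and how the authors' counting treated reads with several matches is not given in the sources used here. The values of single copies are therefore uncertain. A sum over copies is not changed by splitting between them, but it also lacks any reads that were left out.

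**Figure D2:**
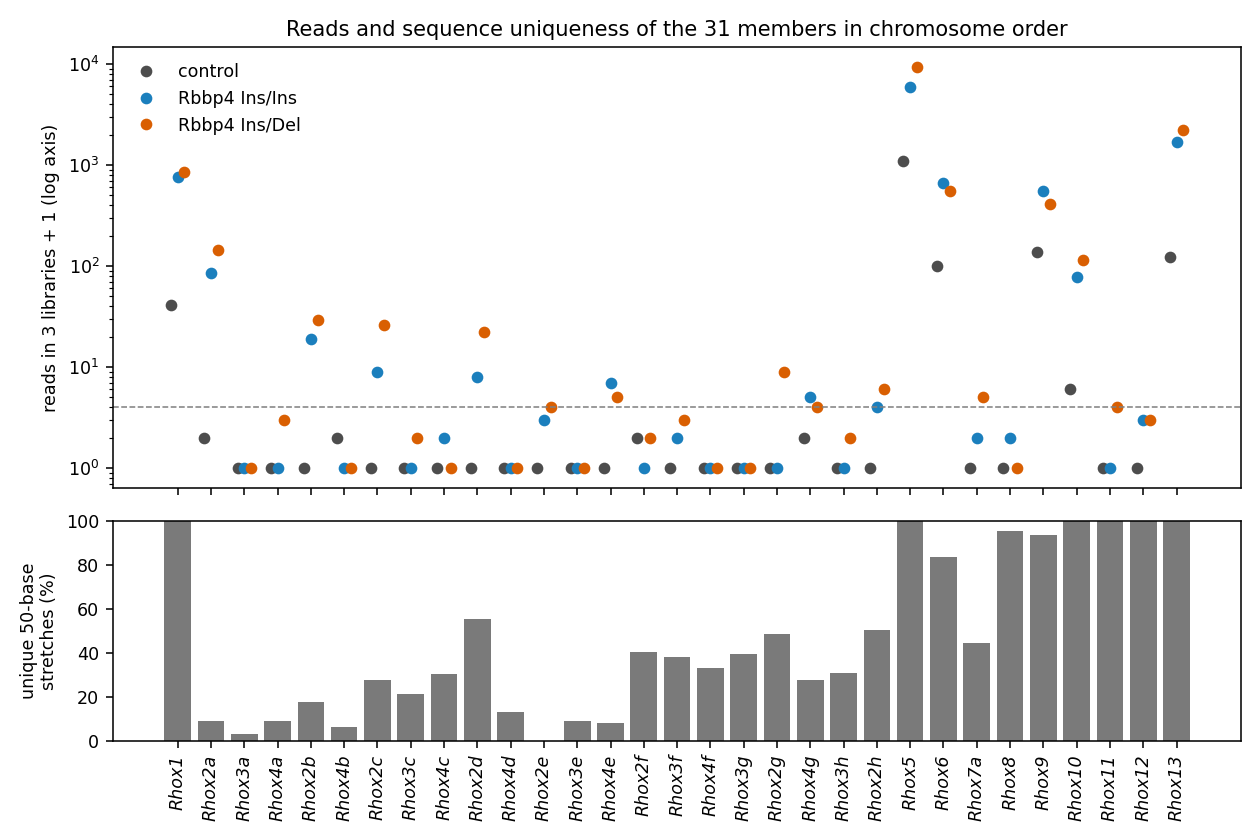
The upper panel gives the reads of each of the 31 members summed over the 3 libraries of a group, plus 1, on a log axis, in chromosome order, with a dashed line at the floor of 3 reads. The lower panel gives the percentage of 50-base transcript stretches found in no other gene, which is 100% for Rhox5 and Rhox13 and 8.90% for Rhox2a.

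The beta subcluster held the member with the most reads in every group. Rhox5 (chrX:37804842-37808876, plus strand) measured 362, 355, and 356 in control, 1929, 2001, and 1950 in Ins/Ins, and 3014, 3172, and 3211 normalized reads in Ins/Del libraries. The groups were widely apart and the libraries within each close together. The means of 1960 ± 36.9 and 3132 ± 105 were 5.48-fold and 8.76-fold the control mean of 358 ± 3.50 (SD, n = 3 each).

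Rhox6 (chrX:37826910-37829857, plus strand), expressed in placenta and germ cells, measured 28.2, 35.6, and 33.6 in control, 217, 221, and 228 in Ins/Ins, and 166, 186, and 212 in Ins/Del libraries. Rhox9 (chrX:37899097-37901770, minus strand), a close relative of Rhox6 with the same tissues of expression, measured 35.9, 57.6, and 41.1 in control, 186, 191, and 178 in Ins/Ins, and 128, 151, and 139 in Ins/Del libraries. For both genes the Ins/Ins libraries were the highest, in contrast to Rhox5, and no group overlapped another. Mean ratios to control were 6.85-fold and 5.78-fold for Rhox6, and 4.12-fold and 3.10-fold for Rhox9. The remaining beta members, Rhox7a and Rhox8, had at most 4 reads in any library, and 55.6% of the 50-base stretches of Rhox7a also occurred in genes outside the family.

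In the gamma subcluster Rhox13, a gene known from testis and fetal germ cells, lies at the far end of the cluster (chrX:38121219-38129967, plus strand). It measured 42.7, 34.6, and 41.1 in control, 548, 560, and 575 in Ins/Ins, and 734, 793, and 724 in Ins/Del libraries. The groups were apart, and the means of 561 ± 13.4 and 750 ± 37.2 were 14.2-fold and 19.01-fold the control mean of 39.5 ± 4.33 (SD, n = 3 each). Rhox10 (chrX:38066475-38071691, plus strand), a gene of spermatogonia, had 3, 0, and 2 reads in control, 32, 15, and 29 in Ins/Ins, and 33, 46, and 35 in Ins/Del libraries. Its ratios were 15.4 (95% exact conditional interval 6.33 to 48.9) and 23.6 (9.80 to 73.9). Rhox11 and Rhox12, which lie between Rhox10 and Rhox13, had 3 and 4 reads over all 9 libraries, although their sequences are unique throughout.

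**Figure D3:**
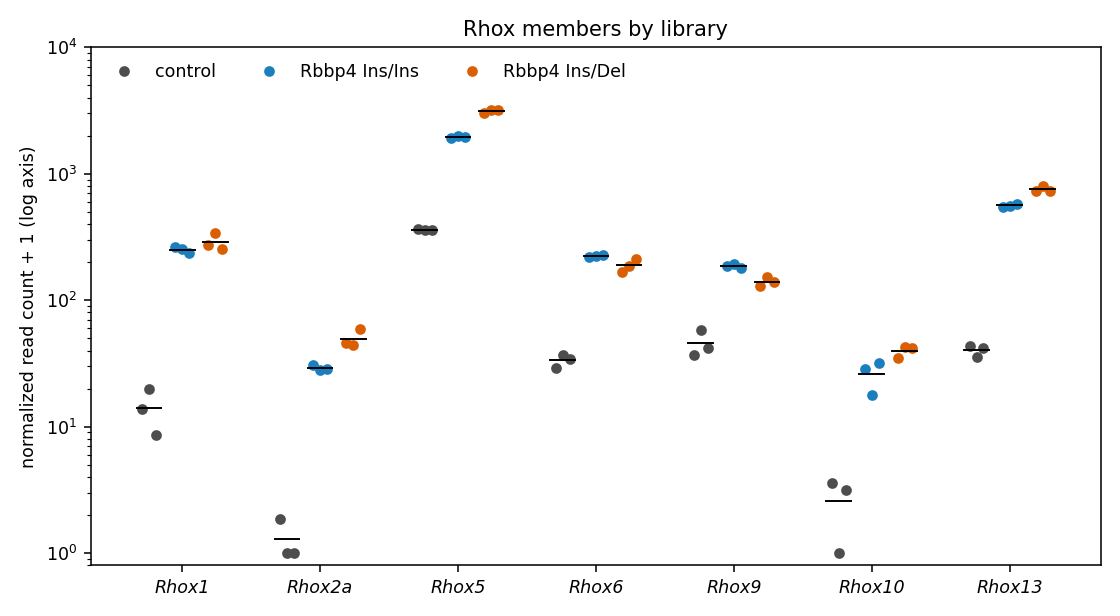
Points are the normalized read counts plus 1, on a log axis, of the 7 members that passed the filter, 1 point for each library, with a line at the group mean. Every mutant point lies above every control point of the same gene, and the control points of Rhox2a and Rhox10 stand at 0 to 2.56 normalized reads.

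Per length, Rhox5 led in every group, at 26.0 ± 0.25, 143 ± 2.68, and 228 ± 7.60 RPKM (reads per kilobase of annotated exon, scaled to library size) in control, Ins/Ins, and Ins/Del ESCs. Rhox13 came next at 2.47 ± 0.27, 35.1 ± 0.84, and 47.0 ± 2.33 RPKM. Among 13891 tested genes with a length, Rhox5 thus moved from the 85.8th percentile to the 98.3rd and 99.1st, and Rhox13 from the 35.9th to the 89.3rd and 92.3rd. In control Rhox6 followed at 1.76 ± 0.21 RPKM, and Rhox9 at 0.99 ± 0.25 and Rhox1 at 0.81 ± 0.35 did not differ beyond their spread. In both mutants Rhox1 instead stood above Rhox6, at 15.6 ± 0.77 against 12.1 ± 0.31 RPKM in Ins/Ins and 17.8 ± 2.86 against 10.2 ± 1.26 in Ins/Del ESCs. Rhox2a at 1.83 ± 0.10 and Rhox10 at 1.80 ± 0.52 RPKM did not differ beyond their spread in Ins/Ins ESCs. In Ins/Del ESCs Rhox2a at 3.16 ± 0.52, Rhox9 at 3.07 ± 0.25, and Rhox10 at 2.77 ± 0.30 RPKM likewise did not, with the Rhox2a value subject to splitting among copies.

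The difference between the mutant lines did not choose the family and was tested. Rhox5 and Rhox13 were higher in Ins/Del ESCs and Rhox9 was lower, which made 2 members called higher and 1 lower of 7, beside 6.17% of all tested genes called higher and 4.64% lower. Rhox5 differed by a log2 fold change of 0.68 (SE 0.036, adjusted p = 2.81e-17, quasi-likelihood test of edgeR, with p-values adjusted by the Benjamini-Hochberg method over 14125 genes). Rhox13 differed by 0.42 (SE 0.060, adjusted p = 1.19e-06 in the same test). These calls were kept under every alternative tried. Rhox9 differed by -0.41 (SE 0.11, adjusted p = 0.00962), just inside the limit of 0.01. Its call was lost when any 1 of the 6 mutant libraries was left out (log2 fold change -0.47 to -0.35, adjusted p 0.0126 to 0.0611), although all 3 Ins/Del libraries lay below all 3 Ins/Ins libraries.

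The other members tested did not pass the limit between the mutants. The log2 fold change was 0.77 for Rhox2a (95% interval 0.32 to 1.22, adjusted p = 0.0143), 0.61 for Rhox10 (0.10 to 1.11, adjusted p = 0.0949), 0.21 for Rhox1 (0.01 to 0.40, adjusted p = 0.157), and -0.25 for Rhox6 (-0.44 to -0.05, adjusted p = 0.0799), by the same test. With the copies summed, the Rhox2 total differed by a log2 fold change of 0.95 and passed the limit (adjusted p = 0.000236). The intervals are normal 95% intervals from the standard error, not adjusted for the number of genes, and they hold differences of up to 2-fold and more for Rhox2a and Rhox10.

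**Figure D4:**
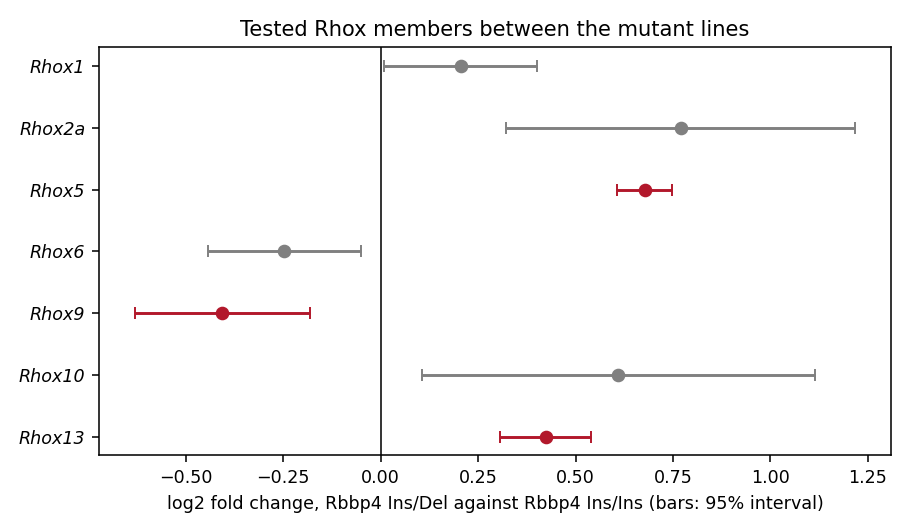
Points are log2 fold changes of Ins/Del against Ins/Ins ESCs for the 7 members tested, with bars for the 95% interval, and red marks an adjusted p of at most 0.01. Rhox5 (0.68) and Rhox13 (0.42) lie to the right of 0 and Rhox9 (-0.41) to the left.

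The mutants also differed in the makeup of the family sum and not in its size alone. Rhox5 took 72.9% ± 1.93 of the family reads in control, 60.3% ± 0.47 in Ins/Ins, and 67.8% ± 0.96 in Ins/Del libraries, and Rhox13 took 8.06% ± 1.03, 17.3% ± 0.42, and 16.2% ± 0.67 (SD, n = 3 each). Rhox9 took 9.13% ± 2.11, 5.69% ± 0.18, and 3.01% ± 0.15. Within a library, which needs no scaling between libraries, there were 10.1, 6.16, and 8.66 Rhox5 reads per Rhox9 read in control, 10.3, 10.5, and 10.98 in Ins/Ins, and 23.6, 21.1, and 23.1 in Ins/Del libraries. For Rhox6 reads per Rhox9 read the values were 0.79, 0.62, and 0.82 in control, 1.17, 1.16, and 1.29 in Ins/Ins, and 1.30, 1.23, and 1.53 in Ins/Del libraries. The ratio of Rhox6 to Rhox9 thus overlapped between the mutants, where that of Rhox5 to Rhox9 did not.

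Around the cluster, the only other tested gene in the range of the members was its nearest neighbor, Gm9. Of 26 genes in the counts within 500 kb of either end or inside the cluster, 18 were tested. In Ins/Ins against control 8 were called higher and 4 lower, and in Ins/Del 6 higher and 4 lower, by the same test, beside the shares over all tested genes of 29.0% higher and 29.4% lower in Ins/Ins and 30.6% higher and 31.9% lower in Ins/Del ESCs. Without Ins/Ins replicate 1, 2 were called lower in Ins/Ins ESCs. Gm9 (chrX:37209348-37211041, minus strand), a protein-coding gene that ends 2.76 kb before Rhox1, measured 2.56, 2.10, and 1.08 normalized reads in control, 77.0, 65.4, and 59.2 in Ins/Ins, and 103, 123, and 124 in Ins/Del libraries. Gm9 is among the 8 and the 6 called higher, but with at most 3 reads in any control library it passed the filter only through the mutant libraries, so its level against control is a description. Between the mutants it was higher in Ins/Del than in Ins/Ins ESCs by a log2 fold change of 0.78 (SE 0.15, adjusted p = 0.000155). The next genes on that side, Rnf113a1 and Ndufa1, at 21.3 and 22.6 kb from the cluster, had log2 fold changes of 0.60 and 0.58 in Ins/Ins and of 0.33 and 0.60 in Ins/Del ESCs. On the far side Zbtb33, at 59.8 kb, fell with log2 fold changes of -0.26 and -0.33, Lamp2 with -0.47 and -0.66, and Cul4b with -0.61 and -0.68. Btg1b and Btg1c, which lie inside the cluster between Rhox9 and Rhox10, had 0 reads in every library.

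Over the whole X chromosome the balance was the opposite of that in the cluster. Of 531 tested genes on this chromosome outside the family, 109 were called higher (20.5%) and 239 lower (45.0%) in Ins/Ins ESCs, and 117 higher (22.0%) and 244 lower (46.0%) in Ins/Del ESCs, with a median log2 fold change of -0.21 in each. On chromosomes 1 to 19 the corresponding shares were 29.3% and 28.8%, and 30.9% and 31.4%, with medians of 0.01 and 0.00.

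**Figure D5:**
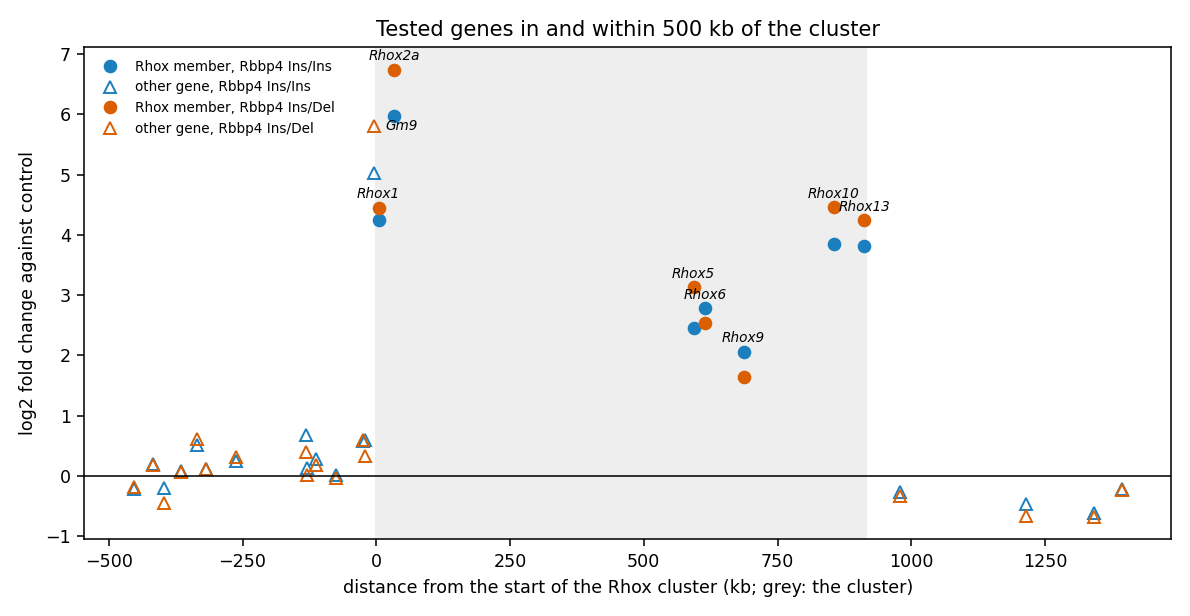
Log2 fold changes against control are plotted by distance in kb from the start of the cluster, with filled circles for Rhox members, open triangles for the other tested genes within 500 kb, and the cluster in grey. The 7 members and Gm9 stand at 1.65 and above, and all other genes at 0.67 or below.

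Genes that share the cluster's known modes of silencing were examined as lists. The lists were chosen with earlier results of these data known, so their calls and p-values against control are a description. A mode of silencing shared with the cluster was not tested. Of 12 germline genes known for methylated promoters in somatic cells, all tested, 9 were called higher and 2 lower in each mutant, beside 29.0% higher and 29.4% lower of all tested genes in Ins/Ins and 30.6% and 31.9% in Ins/Del ESCs. The median log2 fold change of the list was 1.28 in Ins/Ins and 1.495 in Ins/Del ESCs, beside 0.00 and -0.01 over all tested genes. Tex101, a germ cell surface protein, and Asz1, with at most 8 and 7 reads in any control library, are among the 9 and passed the filter only through the mutant libraries. Of the other 10 genes 7 were called higher and 2 lower in each mutant, with medians of 1.03 and 1.18. Dazl, an RNA-binding protein of germ cells, rose by 1.44 (SE 0.065, adjusted p = 9.2e-22) and 1.78 (SE 0.063, adjusted p = 2.76e-25). Hormad1, a protein of the meiotic chromosome axis, rose by 2.18 and 2.25, and Stk31 by 1.71 and 1.92. Tex101 measured 5.47 ± 1.27 normalized reads in control, 78.1 ± 18.5 in Ins/Ins, and 95.2 ± 6.73 in Ins/Del ESCs (SD, n = 3), while Taf7l, Slc25a31, Mael, Asz1, and Sycp1 had log2 fold changes from 0.33 to 3.34. The call of Sycp1 in Ins/Del ESCs was lost without control replicate 1, and in Ins/Ins ESCs without control replicate 1 or Ins/Ins replicate 2 or 3, and that of Asz1 in Ins/Ins ESCs without control replicate 1 or Ins/Ins replicate 2. Sycp3, a component of the synaptonemal complex, instead fell (log2 fold changes of -1.04 and -1.38), as did Tdrkh, a piRNA pathway factor (-0.71 and -0.38), the latter not past the limit without Ins/Del replicate 2 or 3, which leaves 1 called lower. Ddx4 had log2 fold changes of -0.06 and 0.05 and was not called.

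Among 9 genes of the DNA methylation machinery, the de novo methyltransferases Dnmt3a and Dnmt3b were the largest declines. Dnmt3a had log2 fold changes of -1.65 (SE 0.040, adjusted p = 1.76e-30) in Ins/Ins and -1.31 (SE 0.039, adjusted p = 8.12e-28) in Ins/Del ESCs, and Dnmt3b of -1.27 and -1.19. Their cofactor Dnmt3l rose by 0.88 and 1.24. The maintenance factors Dnmt1 and Uhrf1 rose by 0.20 and 0.16 in Ins/Ins and 0.17 and 0.12 in Ins/Del ESCs, and the demethylation enzyme Tet2 by 0.25 and 0.57, whereas Tet3 fell (-0.44 and -0.29). In all, 4 rose and 4 fell in Ins/Ins, and 5 rose and 3 fell in Ins/Del ESCs. Over all tested genes these shares were 29.0% and 29.4%, and 30.6% and 31.9%. DNA methylation itself was not measured, and the part of these genes in the Rhox values was not tested.

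Other lists of repressors moved in both directions. Of 11 genes for H3K9 methylation and linker histones, 3 rose (27.3%) and 4 fell (36.4%) in each mutant, which is near the share of all tested genes (29.0% and 29.4% in Ins/Ins, 30.6% and 31.9% in Ins/Del ESCs), with log2 fold changes of -0.30 and -0.35 for Ehmt2, of -0.45 and -0.49 for Wiz, its zinc-finger partner, and of 0.25 and 0.28 for Setdb1. The linker histone gene H1f3 had a log2 fold change of -1.44 in each mutant, at 37.7 ± 5.76 normalized reads in control, and most linker histone transcripts lack a poly(A) tail, so a kit that selects mRNA measures them poorly. Of 10 subunits of PRC1.6, a Polycomb complex that represses germline genes, 3 rose and 2 fell in Ins/Ins, and 4 rose and 2 fell in Ins/Del ESCs, beside the shares of all tested genes just given. Among those that rose were Mga, a DNA-binding scaffold subunit, with log2 fold changes of 0.41 (adjusted p = 2.87e-14) and 0.505 (adjusted p = 3.61e-17), and Wdr5, with 0.497 and 0.525. E2f6, another DNA-binding subunit, had log2 fold changes of -0.66 (SE 0.063, adjusted p = 7.04e-12) and -0.73 (SE 0.063, adjusted p = 4.87e-13). Cbx3, the other that fell, had -0.15 in each, and its call was lost without control replicate 1 or 2 or Ins/Ins replicate 1, 2, or 3 in Ins/Ins ESCs, and without control replicate 1 or 2, Ins/Ins replicate 1, or Ins/Del replicate 2 or 3 in Ins/Del ESCs, leaving 1.

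Since Rhox5, Rhox6, and Rhox9 are also expressed in extraembryonic cells, markers of other cell types were read in the same libraries. Of 8 trophectoderm markers, 5 were tested and 2 rose (Eomes and Plet1) and 2 fell in each mutant, with summed normalized reads of 423 to 448 in control, 640 to 672 in Ins/Ins, and 588 to 687 in Ins/Del libraries. Prl3d1, a marker of trophoblast giant cells, was at 0 in every library, and Cdx2, the defining trophectoderm factor, measured 30.1 ± 8.10 in control, 2.40 ± 0.87 in Ins/Ins, and 2.49 ± 1.90 in Ins/Del ESCs. Of 8 primitive endoderm markers, 7 were tested, 1 rose and 2 fell in Ins/Ins, and 5 rose and 2 fell in Ins/Del ESCs. Their sums were 1725 to 1854, 1686 to 1815, and 2332 to 2352, with Lama1 at 2013 ± 21.4 of the last. Of 8 fibroblast markers, 4 were tested, 1 rose (Thy1) and 3 fell (Col1a1, Col1a2, and Col3a1) in each mutant, with sums of 587 to 688, 256 to 285, and 342 to 364. Thy1 made up most of the mutant sums, at 246 ± 13.4 in Ins/Ins and 312 ± 12.8 in Ins/Del ESCs, beside 45.7 ± 1.10 in control. Of 8 primordial germ cell markers, all tested, 4 rose and 3 fell in Ins/Ins, and 1 rose and 4 fell in Ins/Del ESCs, with sums of 6007 to 6361, 6320 to 6578, and 4966 to 5185. Sox17, among the 5 primitive endoderm markers called higher in Ins/Del ESCs, passed the filter only through mutant libraries, and Cdx2 and Col3a1 only through control libraries. Over all tested genes, 29.0% were called higher and 29.4% lower in Ins/Ins, and 30.6% and 31.9% in Ins/Del ESCs. Counts from lists this short are therefore a description. The part of these cell types in the Rhox values was not tested.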

How the data were processed

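RNA-seq counts of 9 libraries were analysed, 3 for each of the control, Ins/Ins, and Ins/Del ESC lines, grouped by the genotype labels. Per the labels and methods, the authors made mRNA libraries from total RNA, sequenced paired reads of 50 bases, aligned them to mm10 with STAR 2.7.3, and deposited whole-number HTSeq counts per gene symbol without normalization. The HTSeq version, annotation, and strand setting are not given in the sources used here, and gene counts carry the uncertainty of copies and overlapping genes. Members, gene lists, and tests were chosen with earlier results of these data known.

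edgeR 4.0.16 in R 4.3.3 applied TMM factors (0.993 to 1.02) and filterByExpr, and fitted all libraries in 3 groups with the quasi-likelihood test, without covariates. Adjusted p-values (Benjamini-Hochberg, 14125 genes) of at most 0.01 were called. The fit was tested on simulated data. Same-numbered libraries did not deviate together (correlations of -0.03 to 0.06), so numbers were not used as pairs. Replicates differed beyond sampling noise (chi-square per gene 1.87 to 4.62), and none was a duplicate. Library totals are given with the results, and counting intervals at 95% cover counting error only. Positions, lengths, and uniqueness come from GENCODE M21, promoters from RefSeq, and summaries from Python 3.11.15, pandas 2.3.3, SciPy 1.17.1, and Biopython 1.88.

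By the rule fixed at the start, every member with a read is accounted for, those that passed the filter and averaged at least 10 normalized reads in 1 group by their values and the others by ranges and counts. The rule also names tested genes within 500 kb of the cluster, Rbbp4, and list genes called in both mutants. Departing from it, most neighbors, marker lists, and list genes of small effect are given by ranges or counts with a few examples. Alternatives were other size factors, total counts, no filter, DESeq2 1.42.0, only the compared groups, a replicate block, a limit of 0.05, each library left out, and copies summed.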

Additional observations from a re-analysis of the deposited data

Results flagged for a closer look

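The effects of the mutants against the shared control differed between Ins/Del and Ins/Ins ESCs for 27 of the members, neighbors, and genes of the lists examined, by the test of the difference itself (edgeR, adjusted p of at most 0.01). They were drawn from 7 tested members, 18 tested neighbors, Rbbp4, and the tested genes of the lists. Over all 14125 tested genes, 6.17% were called higher and 4.64% lower in this comparison. Among the members these were Rhox5 (log2 fold change of Ins/Del against Ins/Ins 0.68), Rhox13 (0.42), and Rhox9 (-0.41). In the neighborhood they were Gm9 (0.78) and Lamp2 (-0.18), with Rbbp4 itself at 0.89. Among germline genes Asz1 (1.36), Dazl (0.34), Stk31 (0.21), and Mael (0.17) were higher in Ins/Del ESCs and Sycp3 (-0.33) was lower. Among genes of the DNA methylation machinery Dnmt3l (0.35), Dnmt3a (0.34), Tet2 (0.32), and Hells (0.13) were higher in Ins/Del ESCs. Among ESC markers Zfp42 (0.15) and Tdgf1 (0.11) were higher in Ins/Del ESCs, and Sox2 (-0.10), Dppa5a (-0.19), and Utf1 (-0.24) were lower. Of the other markers, Pdgfra (0.93), Sox7 (0.59), and Lama1 (0.44) of primitive endoderm and Thy1 (0.34) of fibroblasts were higher, and Dppa3 (-0.93), Tfap2c (-0.70), and Kit (-0.22) of primordial germ cells were lower. With 3 libraries in each group no library was examined as an outlier.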

How the results depend on the processing

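The members called in each mutant against control were 7 higher and 0 lower under every alternative, except that without the filter 8 were called higher in Ins/Ins (Rhox2b added) and 10 in Ins/Del ESCs (Rhox2b, Rhox2c, and Rhox2d added). The 7 include Rhox2a and Rhox10, which passed the filter only through the mutant libraries. Between the mutants 2 were called higher, or 3, with Rhox2a or the Rhox2 sum added, when only the compared groups were fitted, when copies were summed, or at a limit of 0.05. The single member called lower between the mutants, Rhox9, was lost (0 called) with DESeq2's size factors, with library totals, and with DESeq2, at adjusted p = 0.0115, 0.0101, and 0.053, and leaving out 1 library gave 0 to 1. The cause was not tested. Of 357 recomputed log2 fold changes of members, pooled over the 3 comparisons, 345 kept their direction and side of the limit. All changes were between the mutants, where Rhox9 lost its call in 9 of 17 alternatives and Rhox2a gained one in 3 of 17. The comparisons with control chose the family, so their part of the 345 is no support for it. The log2 ratio of the family sum was 2.73, 3.24, and 0.51 and moved by less than 1 SD between libraries under every alternative. With the replicate block, which has no support in the labels or the correlations, the counts stayed at 7 higher in each mutant, and 2 higher and 1 lower between the mutants. For the gene lists and neighbors the same alternatives were added after the data were seen, and 82 of 1665 values of called genes were no longer past the limit, with 0 changes of direction. Most copies of Rhox2, Rhox3, and Rhox4 had under 10 reads in all, and the parts of depth and of sequence shared between copies cannot be told apart.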
